A study of Mus musculus with 2 samples.

Results

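The genes described here encode the enzymes of central carbon metabolism. They are 20 genes of glycolysis, counting the lactate exporter Slc16a3 and the regulator Pfkfb3, 4 genes of the pentose phosphate pathway and 13 genes of the tricarboxylic acid (TCA) cycle. They were taken by gene symbol from the 16614 genes listed. All 37 were found, and 36 of them were measured, meaning 1 FPKM or more in at least 1 library. The exception was Eno2. FPKM counts fragments for each kilobase of a transcript relative to library size. No label names a unit, and FPKM was inferred from the values, which lets levels of different genes be compared per length. RNA-seq was done on bone marrow cells of C57BL/6 mice cultured for 3 days with M-CSF, the macrophage growth factor, and for 2 days with RANKL, the cytokine that turns macrophages into osteoclasts. There were 2 libraries, 1 from wild-type (WT) and 1 from Foxo3 knockout (KO) cells. On the kind of knockout allele, the age of the mice and the number of mice behind a library the labels say nothing. FoxO3 is a forkhead transcription factor, and by its title the study looked at the role of an isoform of it in holding osteoclasts back.

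Glycolysis splits glucose into pyruvate in the cytosol, and lactate dehydrogenase can turn pyruvate into lactate for export. The pentose phosphate pathway branches off after hexokinase and yields NADPH and ribose phosphate. Pyruvate that enters mitochondria becomes acetyl-CoA, which the TCA cycle oxidises to feed the respiratory chain. Osteoclasts are cells rich in mitochondria. Several glycolytic steps have paralogous enzymes that differ in regulation and in tissue: Hk1, Hk2 and Hk3 for hexokinase, Pfkl, Pfkm and Pfkp for phosphofructokinase, and Aldoa and Aldoc for aldolase.

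No value has a replicate error, since each group is 1 library, and each difference describes these libraries rather than the genotypes. Genes of few reads take values that are whole multiples of what 1 fragment is worth, which gave a rough depth of 25500000 fragments for the WT library. The KO library was 1.40 times as deep, from 27 genes at the 1-fragment step in both, whose ratios ran from 1.38 to 1.44, and this ratio was used. The peaks of each library on their own gave a ratio of 1.347, so the depth is rough. Foxo3 stood at 10.3 FPKM in WT and 0.548 FPKM in KO cells, which matches the labels. The measure of difference is log2(KO + 1) minus log2(WT + 1), called the log2 ratio. Over the 10003 measured genes its median was 0.03, its quartiles were -0.07 and 0.11, and it lay above 0 for 57.6% and below 0 for 42.4% of genes. Osteoclast markers were abundant, led by Acp5 (7737 FPKM in WT and 8636 FPKM in KO cells), Ctsk and Mmp9, and 11 of 14 were higher in the KO library, with summed levels of 21928 and 24657 FPKM. Macrophage markers summed to 12125 FPKM in WT and 9844 FPKM in KO cells, and 16 of 17 were lower in the latter. Of other cell types, neutrophil markers summed to 166 and 162 FPKM over 9 of 11 genes and dendritic markers to 41.7 and 38.0 FPKM over 3 of 7. The erythroid and megakaryocyte list had 1 measured gene of 9, Pf4 (55.7 and 26.2 FPKM), the lymphocyte list 1 of 9, Cd4 (6.77 and 6.27 FPKM), the mast cell, basophil and eosinophil list 1 of 6, Prg2 (1.71 and 1.05 FPKM), and the stromal list 3 of 10 (summing to 7.82 and 7.57 FPKM). Hbb-b1, Cd3e, Mcpt4 and Fcer1a, picked with their values in view, were listed at 0 in both libraries.

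The promoters of the hexokinase and aldolase genes are shown because those families held the member with the lowest log2 ratio (Hk3) and the one with the highest (Aldoc), each next to a paralogue that differed less. They come from RefSeq on GRCm38.p6, the assembly also called mm10, run 5′ to 3′ on the gene's strand and hold 250 bases before and 50 bases after a start. Capitals mark the letters searched for on both strands: ACGTG and GCGTG (cores of the hypoxia response element), GTAAACA (forkhead), GCGCATGCG (NRF1), AAGGTCA (ERR) and GGAAGTG (ETS). An E-box, CACGTG, holds ACGTG on both strands. The Hk3 window is chr13:55021336-55021635, minus strand. The Hk2 window is chr6:82774405-82774704, minus strand. Hk1 has an upstream window, chr10:62379859-62380158, minus strand, and a downstream window, chr10:62340372-62340671, minus strand. Aldoc has an upstream window, chr11:78322823-78323122, plus strand, and a downstream window, chr11:78323948-78324247, plus strand. For Aldoa the window of the first start is chr7:126800398-126800697, minus strand, and that of the second is chr7:126799205-126799504, minus strand. A further Aldoa window overlaps the second.
Hk3: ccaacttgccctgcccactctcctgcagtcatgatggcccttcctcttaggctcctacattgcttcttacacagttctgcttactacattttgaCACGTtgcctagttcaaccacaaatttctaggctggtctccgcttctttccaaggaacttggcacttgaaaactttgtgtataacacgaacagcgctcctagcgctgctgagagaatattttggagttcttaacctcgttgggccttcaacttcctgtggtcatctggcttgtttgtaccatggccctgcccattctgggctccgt
Hk2: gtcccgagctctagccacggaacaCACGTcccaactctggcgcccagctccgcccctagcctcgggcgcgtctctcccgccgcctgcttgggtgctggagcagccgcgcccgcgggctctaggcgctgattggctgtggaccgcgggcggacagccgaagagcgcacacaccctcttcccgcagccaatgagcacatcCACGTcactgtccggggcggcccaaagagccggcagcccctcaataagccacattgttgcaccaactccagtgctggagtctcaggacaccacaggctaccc
Hk1 upstream: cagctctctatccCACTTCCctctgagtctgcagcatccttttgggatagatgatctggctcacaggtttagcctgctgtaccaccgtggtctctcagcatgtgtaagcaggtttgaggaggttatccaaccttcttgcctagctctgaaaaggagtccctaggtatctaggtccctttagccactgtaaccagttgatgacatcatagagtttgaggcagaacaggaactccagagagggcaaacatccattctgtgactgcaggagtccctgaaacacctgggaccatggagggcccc
Hk1 downstream: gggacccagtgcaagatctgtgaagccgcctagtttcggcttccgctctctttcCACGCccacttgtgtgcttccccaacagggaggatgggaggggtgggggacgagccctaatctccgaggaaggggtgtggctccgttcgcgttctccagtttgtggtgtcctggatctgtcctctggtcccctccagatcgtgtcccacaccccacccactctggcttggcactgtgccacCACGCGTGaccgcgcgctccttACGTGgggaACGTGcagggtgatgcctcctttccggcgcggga
Aldoc upstream: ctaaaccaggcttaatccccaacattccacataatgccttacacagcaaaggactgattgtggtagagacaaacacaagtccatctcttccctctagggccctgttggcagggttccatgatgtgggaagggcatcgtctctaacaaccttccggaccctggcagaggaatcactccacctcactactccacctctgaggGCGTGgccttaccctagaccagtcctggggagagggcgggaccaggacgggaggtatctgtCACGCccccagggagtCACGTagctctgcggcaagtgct
Aldoc downstream: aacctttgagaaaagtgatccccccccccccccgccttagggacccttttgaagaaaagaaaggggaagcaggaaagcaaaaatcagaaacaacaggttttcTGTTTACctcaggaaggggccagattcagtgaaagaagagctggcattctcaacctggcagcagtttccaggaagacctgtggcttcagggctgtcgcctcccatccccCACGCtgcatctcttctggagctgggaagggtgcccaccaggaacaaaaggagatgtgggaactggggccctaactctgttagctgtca
Aldoa first: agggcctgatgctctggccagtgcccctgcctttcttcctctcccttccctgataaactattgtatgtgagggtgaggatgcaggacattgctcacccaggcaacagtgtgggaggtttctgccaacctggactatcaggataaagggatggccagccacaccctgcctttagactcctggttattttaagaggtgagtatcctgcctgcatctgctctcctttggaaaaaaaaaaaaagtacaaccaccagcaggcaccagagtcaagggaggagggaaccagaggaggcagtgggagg
Aldoa second: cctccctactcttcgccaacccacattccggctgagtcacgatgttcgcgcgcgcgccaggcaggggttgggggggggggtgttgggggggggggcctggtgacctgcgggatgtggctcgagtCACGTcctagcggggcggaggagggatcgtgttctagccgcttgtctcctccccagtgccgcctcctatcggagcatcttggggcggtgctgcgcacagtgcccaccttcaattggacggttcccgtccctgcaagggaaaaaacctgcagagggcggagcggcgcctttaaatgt

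The Hk3 window holds 7 CpG pairs, against 25 in the Hk2 window, 20 in the downstream Hk1 window and 1 in the upstream one. The gene-level values do not show which Hk1, Aldoc or Aldoa start was used. The letters ACGTG were found in at least 1 window of 13 of the 20 glycolytic genes, 1 of the 4 pentose phosphate genes and 3 of the 12 TCA genes with a window, against 30.5% of 7758 measured genes that had one and 21.8% of all 27025 genes in the table. Glycolytic genes with it included Ldha, Pgk1, Gapdh, Hk2, Hk3 and Slc16a3. GCGTG was in 11, 4 and 5 genes of these pathways, and in 57.6% of measured genes and 35.2% of all genes. The forkhead letters were found in 1 member, Aldoc, in its downstream window, against 2.95% of measured and 4.05% of all genes. NRF1 letters were in 2 members, Pgam1 and Ogdh (4.76% of measured and 1.95% of all genes), and ERR letters in 3, Eno1, Tpi1 and Ogdh (3.89% and 5.38%). ETS letters were in 6, of which 4 were TCA genes (18.6% and 12.5%). A gene with more windows had more chances to hold the letters. The 36 members with a window had 54 windows, and these shares were not matched on windows per gene. A match of letters is a description of the window and shows no binding. Idh3a was not matched to the table.

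None of the members differed by 2-fold in either direction, against 0.12% of measured genes that were at least 2-fold higher and 0.2% at least 2-fold lower in the KO library. At a smaller size, 1.2-fold, 2 members were higher (Aldoc and Pfkm) against 4.93% of measured genes, and 1 was lower (Hk3) against 6.23%. Just short of that size lay Fh1 and Pfkp, with log2 ratios of 0.25, and Pfkfb3 at -0.26. Of the measured genes, 17 of 19 in glycolysis read higher in KO cells (median log2 ratio 0.14), as did 13 of 13 in the TCA cycle (0.20) and 1 of 4 in the pentose phosphate pathway (-0.03). After scaling on a trimmed mean, or centring on the median gene, these counts were 16, 13 and 1. Most members are at 10 FPKM or more, where 61.7% of 6165 genes were higher, with a median of 0.03. Many, though not all, are at 100 FPKM or more, where 68.3% of 863 genes were higher, with a median of 0.05. The differences between pathways were not tested, because genes are not replicates of a genotype.

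**Figure D1:**
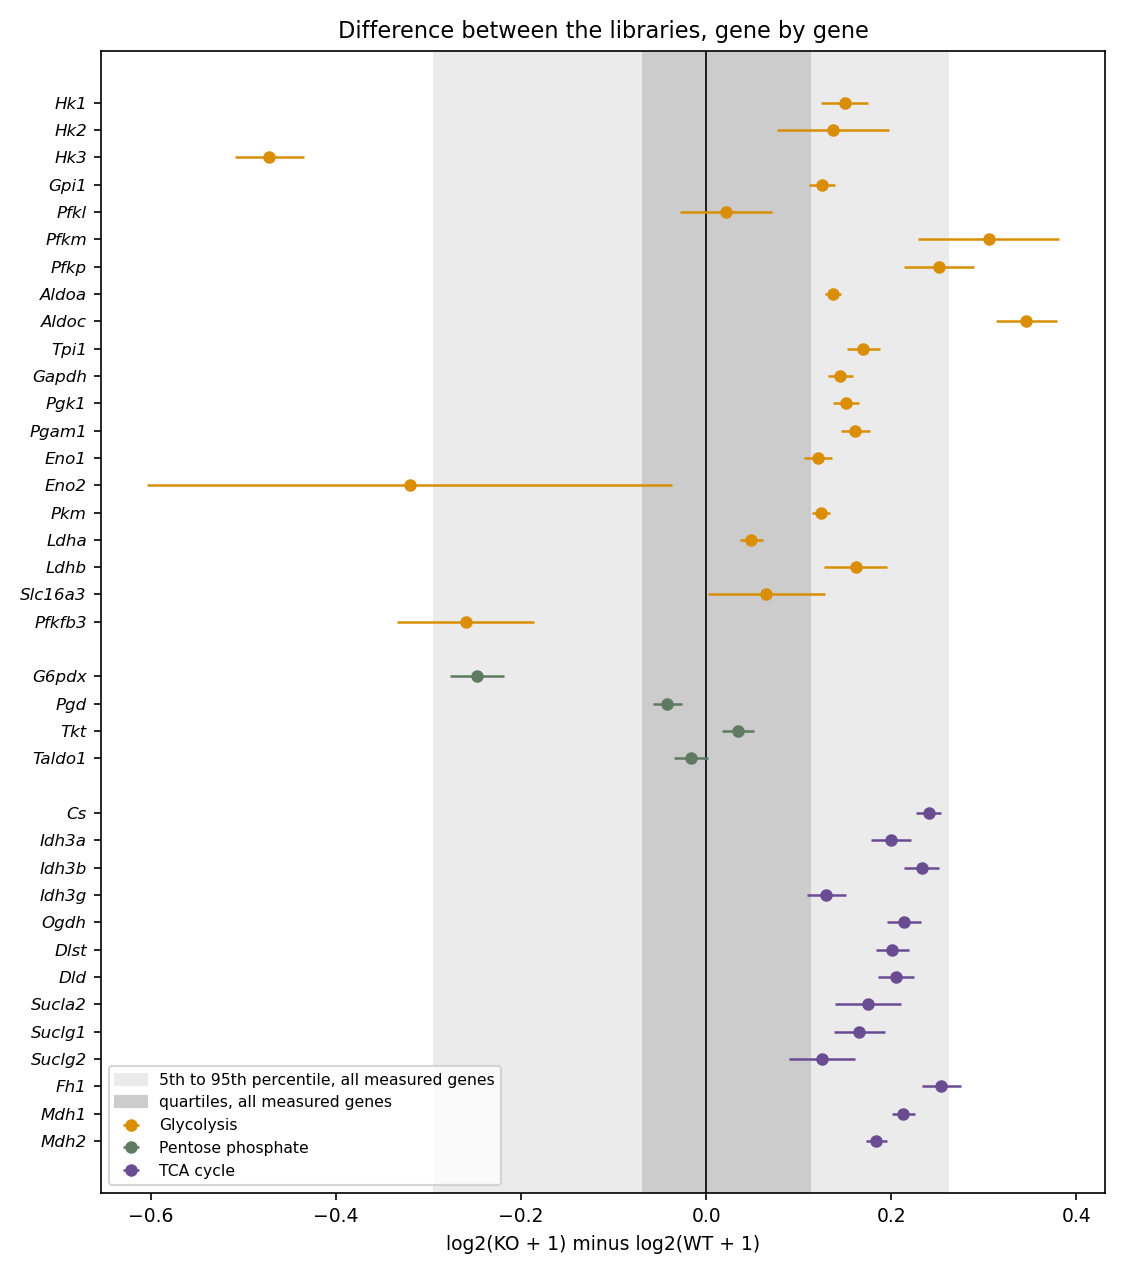
Log2 ratio, log2(KO + 1) minus log2(WT + 1), of each of the 37 genes by pathway. Bars are 1 standard error from counting alone, estimated from the rough depth. They belong to log2(KO / WT) without the pseudocount, so they are too wide for low genes such as Eno2. Dark and light bands mark the quartiles and the 5th to 95th percentiles of all measured genes. All 13 TCA genes lie between 0.13 and 0.25, while glycolytic genes run from -0.47 (Hk3) to 0.35 (Aldoc).

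Hexokinases commit glucose to metabolism by phosphorylating it. Hk1, the widely expressed form that docks on mitochondria (chromosome 10, 62268855 to 62379908), read 48.7 FPKM in WT and 54.1 FPKM in KO cells. Hk3, a form found mainly in myeloid cells (chromosome 13, 55005985 to 55021385), read 36.9 and 26.3 FPKM. Hk2, an inducible form (chromosome 6, 82725025 to 82774454), read 6.67 and 7.44 FPKM. Hk1 and Hk2 were thus slightly higher and Hk3 lower in the KO library, where Hk3 stood at 71.3% of its WT value. The log2 ratios were 0.15, -0.47 and 0.14, and that of Hk3 lay at percentile 1.80 of all measured genes. The sum of the 3 was 92.2 and 87.9 FPKM, 95.3% of the WT sum in KO cells, and its make-up differed. Hk3 held 40.0% of that sum in WT and 29.97% in KO cells, and Hk1 held 52.8% and 61.6%. Such shares do not depend on scaling between the libraries. Exons of Hk3 overlap 34 bases of Unc5a on the opposite strand, and the labels do not say whether counting used strand. The macrophage markers, with their sums of 12125 and 9844 FPKM, moved the same way as Hk3, and their part in its difference was not tested. In bulk RNA, fewer cells of a type and less RNA per cell cannot be told apart.

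Phosphofructokinase is the main control point of glycolysis. Pfkp, the platelet-type form (chromosome 13, 6579768 to 6648777), was the highest of the family per length, at 22.4 FPKM in WT and 26.9 FPKM in KO cells. Pfkl, the liver-type form, stood at 15.3 and 15.6 FPKM. Pfkm, the muscle-type form (chromosome 15, 98092589 to 98132451), stood at 7.67 and 9.72 FPKM. All 3 were higher in the KO library on the scale of the log2 ratio, at 0.25, 0.02 and 0.31, but Pfkl was at -0.003 after trimmed-mean scaling and -0.004 when centred on the median gene. The share of Pfkl in the family sum was 33.7% in WT and 29.8% in KO cells. Pfkp shares 748 exon bases with Pitrm1 on the opposite strand, which read 18.12 and 17.97 FPKM, so without strand the reads from that shared stretch cannot be told apart. Pfkfb3, the kinase and phosphatase that makes the allosteric activator of phosphofructokinase (chromosome 2, 11471433 to 11554077), went the other way, at 5.90 and 4.77 FPKM. Its log2 ratio was -0.26.

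**Figure D2:**
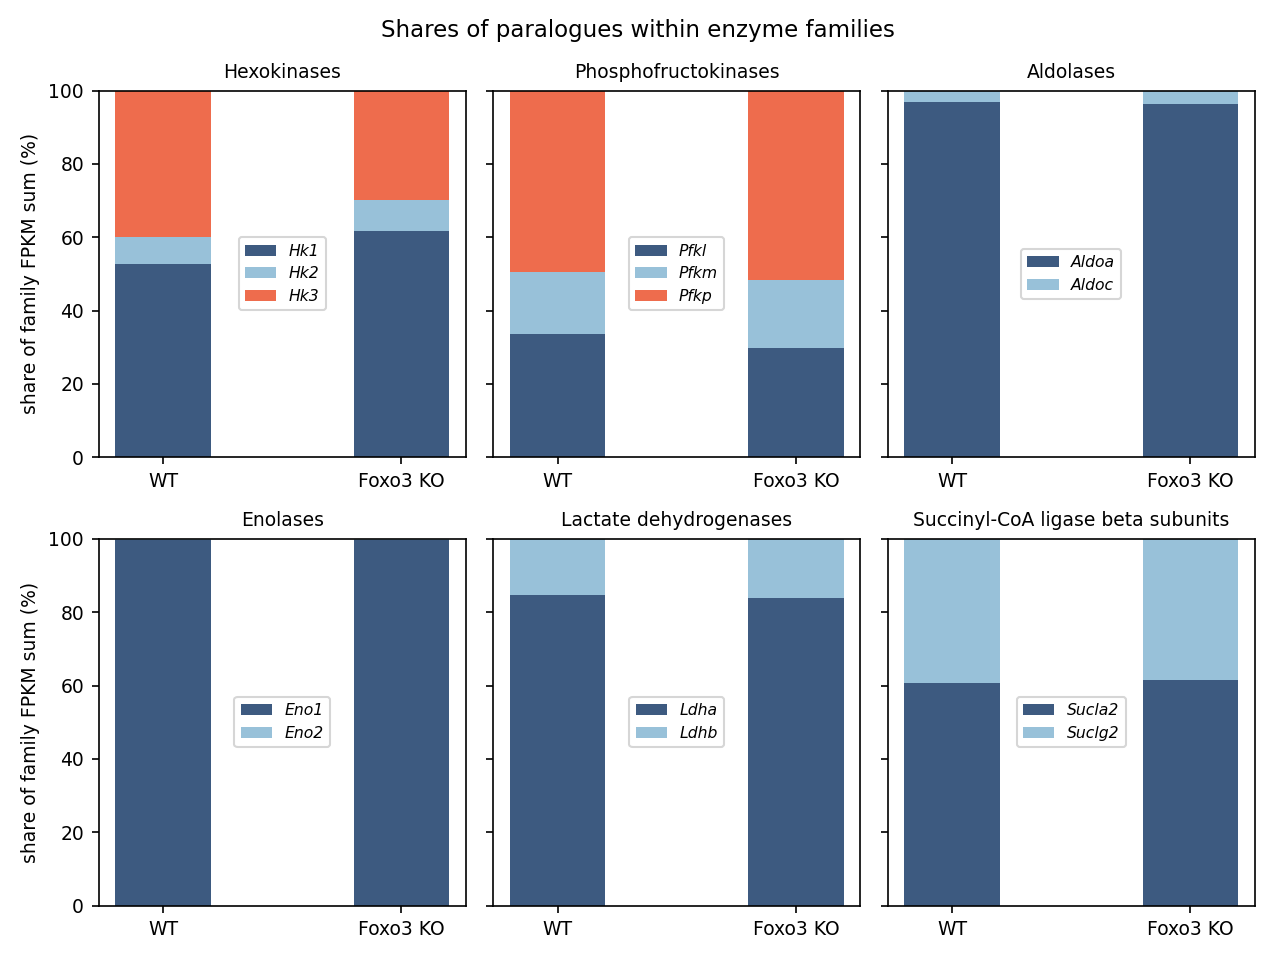
Share of each paralogue in the summed FPKM of the members of its enzyme family (other paralogues, such as Eno3, left out), in percent, for the WT and the KO library (1 library each). The hexokinase panel shows the widest shift, with Hk3 at 40.0% and 29.97%, while every family keeps its leading paralogue and shares in the others shift by less than 4 points.

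Aldolase splits fructose bisphosphate. Aldoa, the general form, was the most abundant member in either library, at 1313 FPKM in WT and 1443 FPKM in KO cells. Aldoc (chromosome 11, 78322968 to 78327781), known as the brain form, read 42.9 and 54.8 FPKM. Both were higher in the KO library, Aldoc by more, with log2 ratios of 0.14 and 0.35. The Aldoc ratio was the highest of all members, at percentile 97.7 of measured genes. Aldoc still made up no more than 3.66% of the family sum, against 3.16% in the WT library. On a share of fragments, which weights by transcript length, the shift was 0.839 points in place of 0.492 points.

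The steps from triose phosphate to pyruvate each had 1 dominant gene, and these genes kept close together. Gapdh, the dehydrogenase that yields NADH, stood at 541 FPKM in WT and 598 FPKM in KO cells, and Pkm, pyruvate kinase, at 585 and 638 FPKM. Pgk1, which makes the first ATP of the pathway, stood at 387 and 430 FPKM. Pgam1 read 301 and 337 FPKM, Eno1 302 and 329 FPKM, and the triose phosphate isomerase gene Tpi1 262 and 294 FPKM. Gpi1, of the earlier isomerase step, read 236 and 257 FPKM. The 7 log2 ratios ran from 0.12 (Eno1) to 0.17 (Tpi1), a band narrower than the quartiles of all measured genes. Eno2, the neuronal enolase, was near the floor, at 0.827 and 0.463 FPKM, an estimated 59 and 46 fragments, below the muscle enolase gene Eno3 at 11.3 and 12.9 FPKM. It came to 0.273% and 0.141% of the sum of Eno1 and Eno2. Copies limit several of these values. Annotated pseudogenes matched at 90% identity over 300 bases or more numbered 169 for Gapdh, 13 for Ldha and 8 for Pkm. There were 5 each for Aldoa and Eno1, 4 for Pgk1, 3 for Pgam1, 2 for Tpi1 and 1 for Gpi1. The closest was 100% identical for Gapdh, Pgk1 and Pgam1, but 95.9% for Ldha and 91.8% for Aldoa. The coding copy Eno1b is 99.5% identical to Eno1, and Gm10358 is 99.1% identical to Gapdh. None of these pseudogenes has a row of its own in the files.

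Lactate dehydrogenase joins M subunits from Ldha and H subunits from Ldhb. Ldha stood at 501 FPKM in WT and 518 FPKM in KO cells and Ldhb at 89.4 and 100.1 FPKM. Both were higher in the KO library, Ldhb (log2 ratio 0.16) by more than Ldha (0.05). Ldha made up 84.9% and 83.8% of the pair. Slc16a3, the lactate exporter MCT4, was low at 7.96 and 8.37 FPKM, with a log2 ratio of 0.07. Summed over the 19 measured genes, glycolysis came to 4712 FPKM in WT and 5153 FPKM in KO cells, 109% of the WT sum, against 102% for all measured genes.

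**Figure D3:**
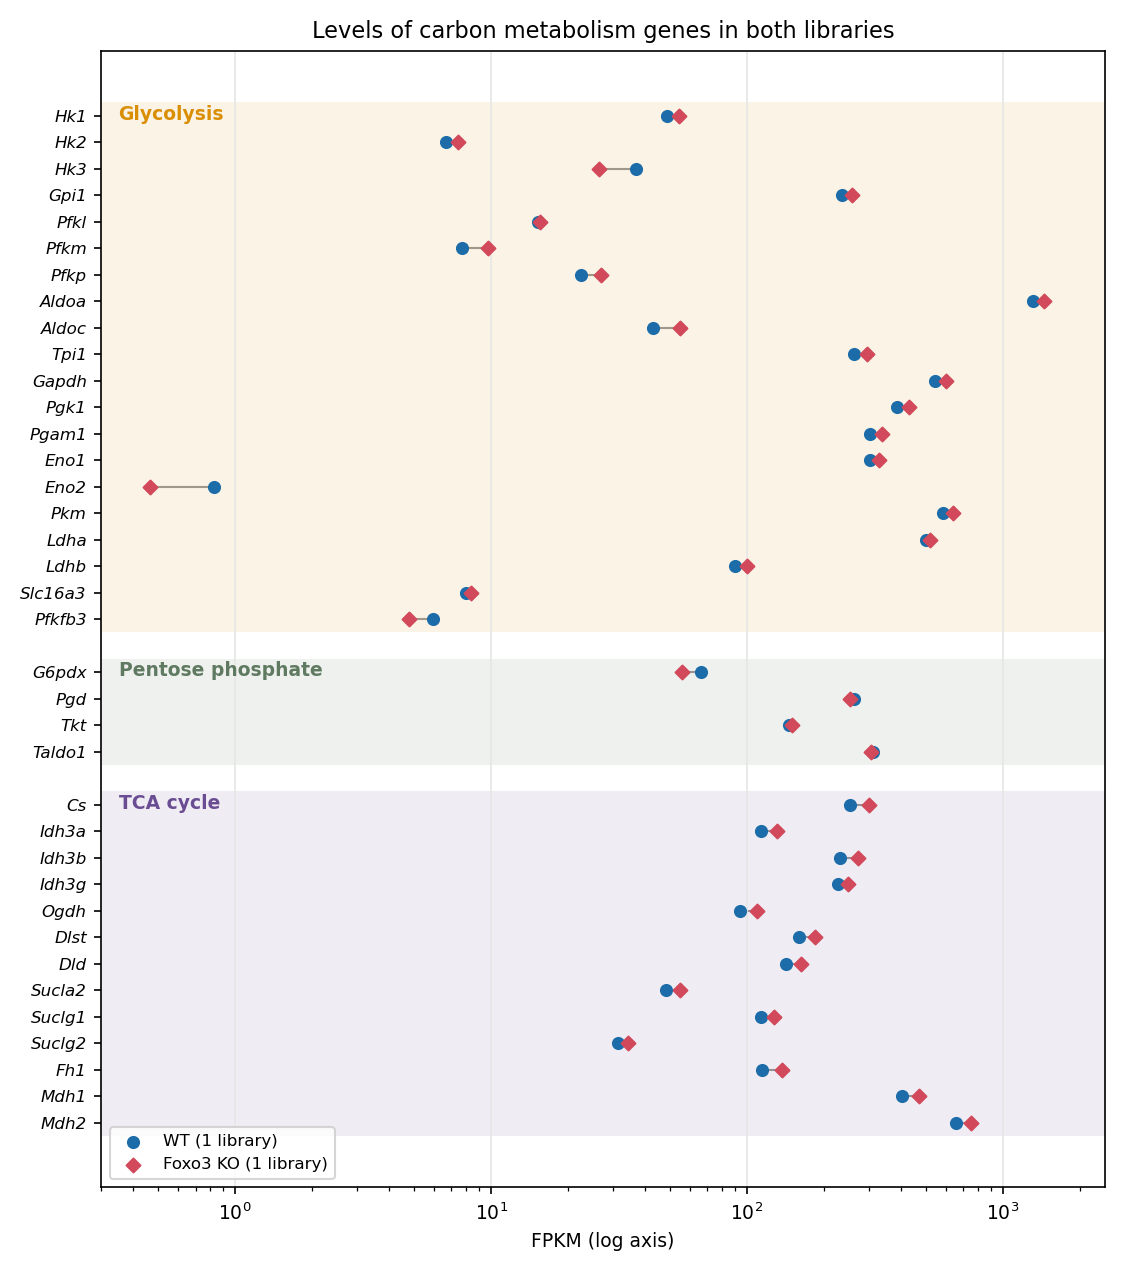
FPKM of each of the 37 genes on a log axis, by pathway, with circles for the WT and diamonds for the KO library (1 library each) joined by a line. Levels run from under 1 FPKM (Eno2) to 1443 FPKM (Aldoa), and every TCA gene has its KO value to the right of its WT value.

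Of the 4 pentose phosphate genes, 3 differed little between the libraries. G6pdx, the X-linked glucose phosphate dehydrogenase that commits glucose to the pathway and makes NADPH (chromosome X, 74409483 to 74429194), was the exception, at 66.1 FPKM in WT and 55.5 FPKM in KO cells. Pgd, the next NADPH-producing dehydrogenase, read 261 and 253 FPKM. In the non-oxidative arm, which interconverts sugars, transketolase (Tkt) read 146 and 150 FPKM and transaldolase (Taldo1) 310 and 306 FPKM. The log2 ratio of G6pdx was -0.25, at percentile 6.82 of measured genes, and the other 3 lay between -0.04 and 0.03. Both oxidative enzymes were thus lower in the KO library, Pgd by little. G6pdx exons overlap 418 bases of Ikbkg on the opposite strand. The macrophage markers were lower too (16 of 17), and their part in the G6pdx difference was not tested. The pathway summed to 783 and 765 FPKM. Of 12 further genes of the pathway 10 were measured, and 7 of them were higher (median 0.07). They held Pgls, the lactonase between the 2 dehydrogenases, at 72.6 and 93.9 FPKM (log2 ratio 0.37), Pgm2 at 21.98 and 25.99 FPKM (0.23), and H6pd, a glucose phosphate dehydrogenase of the endoplasmic reticulum, at 30.4 and 25.8 FPKM (-0.23). The oxidative steps therefore went in different directions within these libraries.

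TCA cycle genes were higher in the KO library without exception, at 109% (Suclg2) to 119% (Fh1) of their WT values. Citrate synthase (Cs), which brings acetyl-CoA into the cycle, read 253 FPKM in WT and 299 FPKM in KO cells, a log2 ratio of 0.24. Fh1, fumarase (chromosome 1, 175600374 to 175625635), read 115 and 137 FPKM and had the highest ratio of the cycle, 0.25. Suclg2 had the lowest, 0.13. All 13 therefore lay above the upper quartile of measured genes, 0.11, and between percentiles 78.1 and 94.6. Over the 863 genes at 100 FPKM or more the upper quartile was 0.14, above the ratio of Idh3g, 0.13. Suclg2, also at 0.13, is below that level, at 31.2 and 34.2 FPKM. Over the 6165 genes at 10 FPKM or more the upper quartile was 0.11. The summed level of the 13 genes was 2591 FPKM in WT and 2977 FPKM in KO cells, 115% of the WT sum. All 13 were also higher after either scaling and with trends on transcript length and GC content removed. The other settings tried, of pseudocount and minimum level, could not change that count.

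Isocitrate dehydrogenase of the cycle is built from the subunits of Idh3a, Idh3b and Idh3g. Idh3a read 114 FPKM in WT and 131 FPKM in KO cells, Idh3b 231 and 272 FPKM, and Idh3g 227 and 249 FPKM. Idh3a, the catalytic subunit, was the lowest per length, and Idh3g the one with the smallest log2 ratio (0.13, against 0.20 and 0.23). The oxoglutarate dehydrogenase complex showed almost no shift in its make-up. Ogdh stood at 94.0 and 109 FPKM, Dlst at 160 and 184 FPKM, and Dld, which this complex shares with pyruvate dehydrogenase, at 141 and 163 FPKM. Their shares of the sum were 23.8%, 40.4% and 35.8% in WT and 23.9%, 40.3% and 35.8% in KO cells. The 3 log2 ratios were 0.21, 0.20 and 0.21.

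Succinyl-CoA ligase pairs the alpha subunit of Suclg1 with a beta subunit that sets the nucleotide it makes, Sucla2 for ATP and Suclg2 for GTP. Suclg1 read 114 FPKM in WT and 128 FPKM in KO cells, Sucla2 48.3 and 54.7 FPKM, and Suclg2 31.2 and 34.2 FPKM. The ATP-forming subunit was the higher of the pair, with 60.7% and 61.5% of the beta sum, a shift smaller than the 95% counting interval of about 1.66 points. Malate dehydrogenase has a cytosolic form, Mdh1, at 405 and 469 FPKM, and a mitochondrial form, Mdh2, at 658 and 748 FPKM. They were the most abundant members outside glycolysis, and their log2 ratios were close, 0.21 and 0.18. Suclg2 and Cs each have 1 annotated pseudogene copy. Of the osteoclast markers, with sums of 21928 and 24657 FPKM, 11 of 14 were also higher in the KO library and 3 were lower. Of the macrophage markers 16 of 17 were lower. The part of these markers in the TCA difference was not tested.

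**Figure D4:**
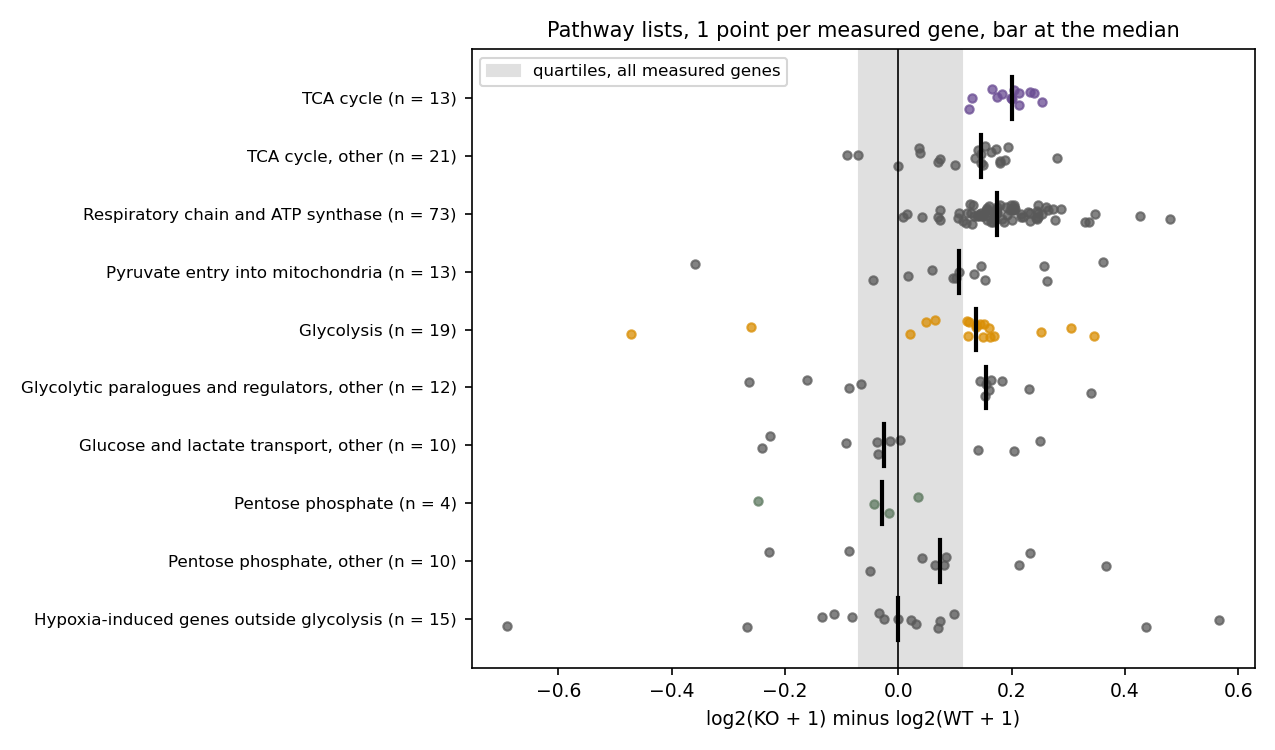
Log2 ratio, log2(KO + 1) minus log2(WT + 1), of every measured gene in the 3 pathways (coloured) and in related lists (grey), with a bar at each list's median and a band for the quartiles of all measured genes. The TCA points form a tight group around 0.20, and the pentose phosphate median lies at -0.03.

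Genes next to the members in the pathway map were counted in the same way, with no test of the differences between lists. Pyruvate entry genes were higher in 11 of 13 measured cases (median 0.11), with Mpc2, of the mitochondrial pyruvate carrier, at 90.6 FPKM in WT and 117 FPKM in KO cells and the pyruvate dehydrogenase genes Dlat at 49.9 and 60.1 FPKM and Pdhb at 223 and 266 FPKM. Further genes around the TCA cycle were higher in 18 of 21 cases (median 0.15), among them the aspartate transaminase gene Got1 (45.7 and 55.7 FPKM), Acly, which turns exported citrate into acetyl-CoA (66.1 and 75.8 FPKM), and the aspartate and glutamate carrier gene Slc25a12 (20.6 and 23.6 FPKM). Log2 ratios of the 4 succinate dehydrogenase genes, Sdha to Sdhd, lay between 0.14 and 0.15; these genes were picked with their values in view. Respiratory chain and ATP synthase genes, the nearest neighbours in function, were higher in 73 of 73 cases. Their median was 0.17, against 0.20 for the TCA genes. After either scaling 71 were higher, and with trends on length and GC content removed 69 were. With those trends removed the respiratory median fell to 0.13, while the TCA median stayed at 0.20.

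Other glycolytic paralogues and regulators were higher in 8 of 12 cases (median 0.15), with Eno3 at 11.3 FPKM in WT and 12.9 FPKM in KO cells (log2 ratio 0.18), the ADP-dependent glucokinase gene Adpgk at 15.4 and 17.3 FPKM, and Pfkfb2, a relative of Pfkfb3, at 47.4 and 42.3 FPKM. Pfkfb2 was thus the more abundant of that pair and, like Pfkfb3, lower in the KO library (log2 ratio -0.16). Of their relatives, Pfkfb4 was higher, at 6.87 and 7.75 FPKM (0.15), and Pfkfb1, near the floor at 1.12 and 0.763 FPKM, was lower (-0.26). Transporters were higher in 4 of 10 cases (median -0.03). The glucose phosphate transporter gene Slc37a4 read 8.41 and 10.2 FPKM, Bsg, the chaperone of lactate carriers, 168 and 185 FPKM, and Slc16a7, the carrier MCT2, 34.4 and 32.2 FPKM. Slc2a1, the glucose transporter GLUT1 and the highest per length of the 7 Slc2 genes looked at, chosen after its values were seen, stood at 20.7 and 20.4 FPKM. Counting alone, on the rough depth and the longest coding transcript, gave standard errors from 0.008 (Aldoa) to 0.076 (Pfkm) among measured members. These are for log2(KO / WT) without the pseudocount, and are too wide for the log2 ratio of low genes. They leave out variation between cultures and mice, which 1 library per group cannot show.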

How the data were processed

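The deposited values, 1 column per library, were read as FPKM, as made by the authors. No header or label names the unit: the values are not whole, and the lowest ones scale inversely with transcript length. TopHat, edgeR and mm10 appear in the submitters' processing notes, with no role or version. For the quantifier, annotation, strand use and scaling between libraries: not given in the sources used here. A constant of 0.000001 on every value was subtracted.

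Differences are log2(KO + 1) minus log2(WT + 1). The pseudocount, 1 FPKM, understates those of low genes. With 1 library per group no test was run, and sizes of 2-fold and 1.2-fold took its place. Members, lists and the families compared were chosen with earlier results of these data known. The lists held 297 entries in 18 lists, of which 291 were found, 2 through a RefSeq synonym. Named genes were all members, Foxo3, from each related list the 3 genes at 10 FPKM or more with the largest absolute log2 ratio (for the respiratory list only its summary is given), and the most abundant markers. Other genes named with values were chosen after their values were seen, or overlap a member. Results on some items are not reported here.

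Depth was estimated from 649 WT genes with 1 annotated transcript. The first peak of FPKM times length gave what 1 fragment is worth. Fragments per member assume the longest coding transcript of GENCODE M21, which also gave gene coordinates (mm10). Copies were sought with BLAST 2.17.0. Promoters of 36 members, 54 windows in all, came from RefSeq. Alternatives were 2 scalings (one trimming 30% of log ratios from each end and 5% of mean levels), a pseudocount of 0.25 or 5, a minimum level of 10 FPKM or none, lowess trends (span 0.3) on length and GC content removed, the mean, leaving out the farthest member, thresholds of 1.5-fold and 1.2-fold, and shares of fragments. The steps were tested on simulated data, where the bar for calling lowered genes was relaxed after the first run. Python 3.11.15, numpy 2.4.6, pandas 2.3.3, statsmodels 0.14.6 and matplotlib 3.10.9 were used.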

Additional observations from a re-analysis of the deposited data

How the results depend on the processing

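Of 249 recomputed log2 ratios of members, 247 kept their direction, with moves below 0.134, the robust spread of all measured genes. The exception was Pfkl, at -0.00335 with trimmed-mean scaling and -0.00384 when centred on the median gene. Only the 2 scalings and trend removal could reverse a direction, since a pseudocount cannot and a minimum leaves each ratio as it was. Over all settings the median log2 ratio ran from 0.112 to 0.145 for glycolysis, from -0.0555 to -0.0161 for the pentose phosphate pathway and from 0.175 to 0.204 for the TCA cycle, and the means were 0.0994, -0.0677 and 0.195. Past the fold, 2 members were higher and 1 lower at 1.2-fold, against 0 and 0 at 2-fold, as lowering a threshold must give. With a minimum of 10 FPKM, 1 glycolytic gene was lower in place of 2, since Pfkfb3 was no longer counted. The share of Aldoa differed by -0.839 points by fragments and by -0.492 points per length. Of all measured genes 12 were higher and 20 lower by 2-fold. A pseudocount of 5 left 5 higher and 6 lower, and 0.25 gave 39 lower. Raising the minimum to 10 FPKM left 5 higher. At 1.5-fold there were 41 higher and 94 lower, and at 1.2-fold 493 and 623. No paired analysis was possible because there is 1 library per genotype, so none could be left out either. Depth limits Eno2 most, at an estimated 59 and 46 fragments.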

Other observations

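A list of hypoxia genes outside glycolysis did not move in 1 direction: 7 of 15 measured genes were higher in the KO library. The median log2 ratio was -0.001. Besides genes that hypoxia induces, the list counts genes of the hypoxia-inducible factors themselves: Hif1a (0.07), Epas1 (0.03) and Arnt (-0.03). The lowest ratio was that of Ndrg1 (-0.69, at 9.83 and 5.71 FPKM) and the highest that of Adm (0.57, at 1.27 and 2.37 FPKM). Vegfa, the vascular growth factor, read 18.7 FPKM in WT and 25.7 FPKM in KO cells, while the collagen prolyl hydroxylase gene P4ha1 read 14.0 and 11.5 FPKM and the histone demethylase gene Kdm3a 22.9 and 20.8 FPKM. Hif1a itself, chosen after its values were seen, read 24.7 and 25.9 FPKM.

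Some genes that run these pathways backwards or sideways were barely detected and others were measured. All those named here were chosen after their values were seen. Fbp1, of gluconeogenesis, was listed at 0 in both libraries, and Pck1 at 0.0266 FPKM in WT and 0.0380 FPKM in KO cells. Pck2, however, stood at 4.58 and 4.32 FPKM and Pcx at 1.98 and 2.21 FPKM. Acod1, which makes itaconate from a TCA intermediate in activated macrophages and carries its older name Irg1 in the files, stood at 0.576 and 0.551 FPKM. The lactate carrier gene Slc16a1 was also measured, at 5.93 and 6.99 FPKM, below Slc16a7 at 34.4 and 32.2 FPKM.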
